A study of Danio rerio with 4 samples.

Results

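Row run 4 was compared with row run 1 in a matrix of open chromatin from single nuclei of the zebrafish heart. The rows of the matrix fall into 4 runs in file order, where a new run starts at each row whose barcode sorts before that of the row above it. Run 1 held 430 nuclei and run 4 held 844, together 1274 of 2737 nuclei, and runs 2 and 3 held 715 and 748. A peak entered the comparison when it was open in at least 20 nuclei of both runs together, which 19485 of 50394 peaks (38.7%) were. The unit was the open call, a peak recorded as open in a nucleus, and the level of a peak in a run was its open calls per 1000000 open calls of that run (CPM).

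The nuclei came from non-cardiomyocytes (nonCMs), the heart cells other than cardiomyocytes, of wild type zebrafish. Ventricles were uninjured or regenerating after resection of part of the apex, at 0, 2, 7 and 14 days post amputation (dpa), where 0 dpa stands for uninjured hearts, and each time point gave 1 library by single-cell ATAC-seq (scATAC-seq). In this assay a transposase cuts DNA that is not wrapped tightly in nucleosomes, and fragments are traced to single nuclei by their barcodes. No row name ties a nucleus to a library, and neither the labels nor the methods of the study tie a run to a time point. The runs are therefore called runs here, a difference between them is a difference between blocks of rows, and the time point, the library and the row order cannot be told apart.

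Open chromatin marks promoters and enhancers that factors can reach, and distal peaks in particular differ between cell types. NonCMs include endocardial endothelial cells, which line the chambers, epicardial cells and fibroblasts (Epi/FBs), which cover the heart and make its matrix, macrophages and other blood cells. After apex resection the zebrafish heart regrows muscle, and nonCMs at the wound change state and number. The level of a peak in a pool of nuclei sums over the cell types in that pool.

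The nuclei of run 4 were shallower. The number of open peaks per nucleus had a median of 1382.5 in run 1, with a range of 77 to 5497, and a median of 898.5 in run 4, with a range of 170 to 3726. Nuclei with at least 1000 open peaks numbered 304 in run 1 (70.7%) and 334 in run 4 (39.6%). The runs had 670913 and 841575 open calls, so 1 call was worth 1.49 CPM in run 1 and 1.19 CPM in run 4. A single barcode occurred in both runs, in rows with 2462 and 1003 open peaks of which 124 were the same. The label of the cells could not be checked against marker genes, since gene positions in the build of the matrix were not used here.

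**Figure D1:**
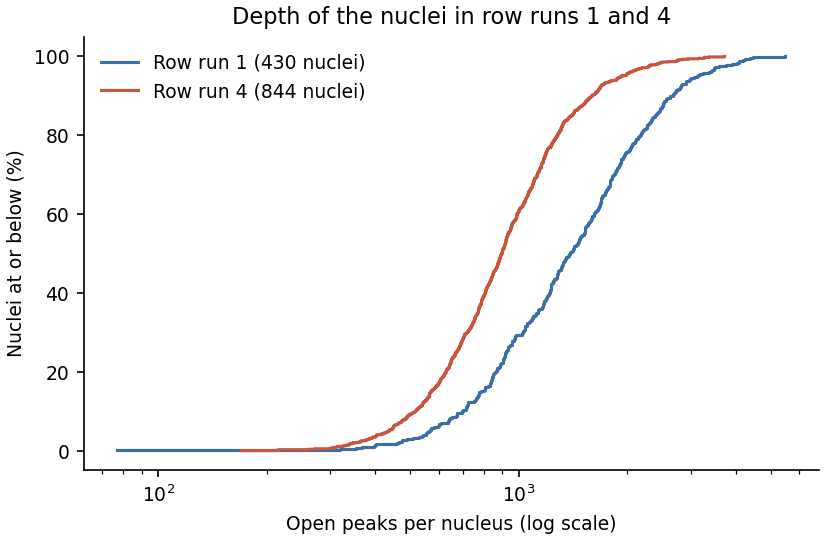
Cumulative share of nuclei (%, y axis) by the number of open peaks per nucleus (x axis, log scale) for row run 1 (blue, 430 nuclei) and row run 4 (red, 844 nuclei). The curve of run 4 lies to the left, with a median of 898.5 open peaks against 1382.5.

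Scaled to the calls of each run, most peaks were at like levels in both runs, and more peaks were lower in run 4 than higher. Ratios of CPM in run 4 to CPM in run 1 were taken on the log2 scale after 10 CPM was added to both, which shrinks the ratio of rarely open peaks. Of the 19485 peaks compared, 932 (4.78%) were at least 2-fold higher in run 4, 1981 (10.2%) were at least 2-fold lower, and 16572 lay within 2-fold. The median log2 ratio was 0.04, with the 5th and 95th percentiles at -1.27 and 0.98. Without this scaling, on the share of nuclei of each run, the median log2 ratio was -0.46, and 336 peaks were higher and 4628 lower, so higher peaks made up 6.77% of those past the limit against 32.0%. Nuclei are not replicates and each run is 1 unit, so there is no replicate check and no test was made. Unless stated otherwise, intervals below are exact 95% intervals that cover counting error only. Those of ratios take each call as independent. Where a ratio pools several calls of a nucleus, as within clusters and windows, the interval can be too narrow.

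The lower peaks held a large part of the calls of run 1 and a small part of those of run 4. They took 11.7% of all calls in run 1, 6.09% in run 2, 5.73% in run 3 and 3.45% in run 4. The higher peaks took 1.03% of calls in run 1, 3.06% in run 2, 2.80% in run 3 and 3.87% in run 4. Runs 1 and 4 were at opposite extremes in both sets. The sets were chosen by the ratio of run 4 to run 1, which pushes the shares of these runs apart, so this is no test. At 21 of the peaks compared no nucleus of run 1 was open, and the most open of these was open in 31 nuclei of run 4. At 1 peak no nucleus of run 4 was open, against 20 nuclei of run 1.

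**Figure D2:**
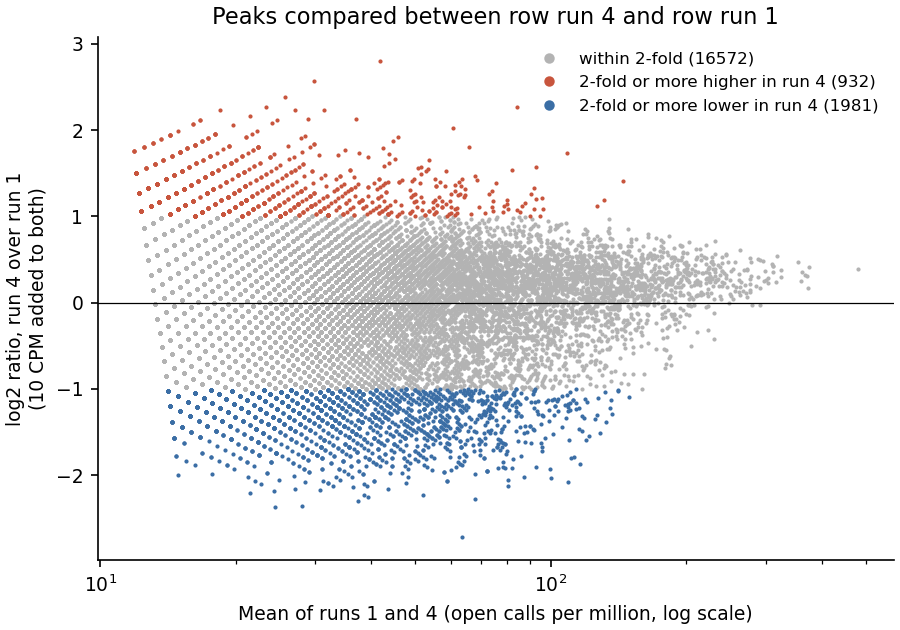
Log2 ratio of run 4 to run 1 (y axis, 10 CPM added to both) against the mean level of both runs (x axis, CPM, log scale), with 1 point for each of the 19485 peaks compared. Red points are the 932 peaks at least 2-fold higher in run 4, blue points the 1981 peaks at least 2-fold lower, and grey points the 16572 within 2-fold.

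Peaks just inside and just outside the limit of 20 nuclei had like ratios. The 731 peaks open in exactly 19 nuclei had a median log2 ratio of 0.07, with the 5th and 95th percentiles at -1.13 and 1.22. For the 652 peaks open in exactly 20 nuclei these values were -0.02, -1.02 and 1.27.

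The 10 lowest ratios among peaks open in at least 100 nuclei were from peaks that roughly 1 in 5 nuclei or more of run 1 used and few nuclei of run 4 did. They lay on 9 chromosomes and were open in 18.8 to 28.6% of the nuclei of run 1 and in 2.37 to 3.55% of those of run 4. The lowest was a peak of 541 bp on chromosome 14 from 16328926 to 16329467, open in 92 nuclei of run 1 (21.4%, interval 17.6 to 25.6), 48 of run 2 (6.71%), 74 of run 3 (9.89%) and 20 of run 4 (2.37%, 1.45 to 3.64). Its log2 ratio was -2.12 and its ratio of CPM 0.173 (0.101 to 0.283). Run 1 was the high run here and run 4 the low one, with runs 2 and 3 between them.

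Runs 2 and 3 lay between runs 1 and 4 at each of the 10 peaks. At chromosome 5 from 24845392 to 24846113 the peak was open in 123 nuclei of run 1 (28.6%), 57 of run 2, 70 of run 3 and 30 of run 4 (3.55%), with a log2 ratio of -2.08. At chromosome 6 from 36690749 to 36691288 it was open in 91 nuclei of run 1, 58 of run 2, 74 of run 3 and 21 of run 4, with a log2 ratio of -2.06. Chromosome 7 held a pair of them. The peak from 37237393 to 37237964 was open in 112, 69, 85 and 28 nuclei of runs 1 to 4, and the peak from 37428212 to 37428748 in 98, 72, 87 and 24. Their log2 ratios were -2.03 and -2.02.

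The other 5 lay on chromosome 23 from 26714515 to 26715115, chromosome 22 from 34429101 to 34429962, chromosome 18 from 8207621 to 8208236, chromosome 11 from 40797276 to 40797790 and chromosome 20 from 21903106 to 21903711. They were open in 81, 81, 81, 110 and 85 nuclei of run 1 and in 20, 20, 20, 30 and 22 nuclei of run 4, in the same order. When each nucleus was thinned to 500 open peaks, which left 417 nuclei of run 1 and 766 of run 4 and left out 13 and 78 shallower ones, the 10 peaks were open in 4.80 to 9.35% of nuclei of run 1 and in 0.783 to 1.70% of nuclei of run 4. The peaks were chosen by their ratio, so these values describe them and are no test. The ranges of the runs did not overlap at full depth or at matched depth.

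The 10 highest ratios were from peaks that were seldom open in run 1 and open in about 1 in 10 nuclei or more of run 4. They were open in 3.49 to 11.6% of the nuclei of run 1 and 9.48 to 21.4% of those of run 4, and in 1.20 to 4.80% and 5.22 to 11.6% at matched depth. In CPM, runs 2 and 3 lay between runs 1 and 4 at all 10. The ranges of the runs overlapped at full depth and did not at matched depth. These peaks too were chosen by their ratio.

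The highest ratio was that of a peak of 457 bp on chromosome 23 from 43613229 to 43613686. It was open in 15 nuclei of run 1 (3.49%, 1.97 to 5.69), 81 of run 2 (11.3%), 76 of run 3 (10.2%) and 123 of run 4 (14.6%, 12.3 to 17.1). Its log2 ratio was 2.27 and its ratio of CPM 6.54 (3.81 to 12.03). Run 1 was the low run, and the other runs lay at 10.2 to 14.6% of nuclei.

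The next in rank, on chromosome 14 from 15790357 to 15790822, was open in 16 nuclei of run 1 (3.72%), 91 of run 2, 108 of run 3 and 91 of run 4 (10.8%), with a log2 ratio of 1.80. At chromosome 8 from 8893323 to 8894057 the values were 30 nuclei of run 1 (6.98%), 110 of run 2, 141 of run 3 and 145 of run 4 (17.2%), with a log2 ratio of 1.74. At chromosome 22 from 16578009 to 16579035 they were 28, 82, 115 and 121 nuclei of runs 1 to 4, with a log2 ratio of 1.57. At these 3 peaks too run 1 was the lowest run.

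Of the other 6, 3 lay on chromosome 5, from 69041039 to 69041854, from 71994534 to 71996318 and from 9338188 to 9338869, and were open in 20 to 22 nuclei of run 1 and 82 to 88 of run 4. Chromosome 11 from 43757269 to 43757926 had an open call in 25 nuclei of run 1 and 107 of run 4, and chromosome 19 from 7144270 to 7144962 in 20 and 80. The most widely open of the 10 lay on chromosome 20 from 46366338 to 46367055, with 50 nuclei of run 1 (11.6%), 156 of run 2, 192 of run 3 and 181 of run 4 (21.4%), with a ratio of CPM of 2.89 (2.10 to 4.03). A region at these coordinates is paired with bmf2, a member of the BH3-only family of genes that promote apoptosis, in a region list of the study that is described further on.

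**Figure D3:**
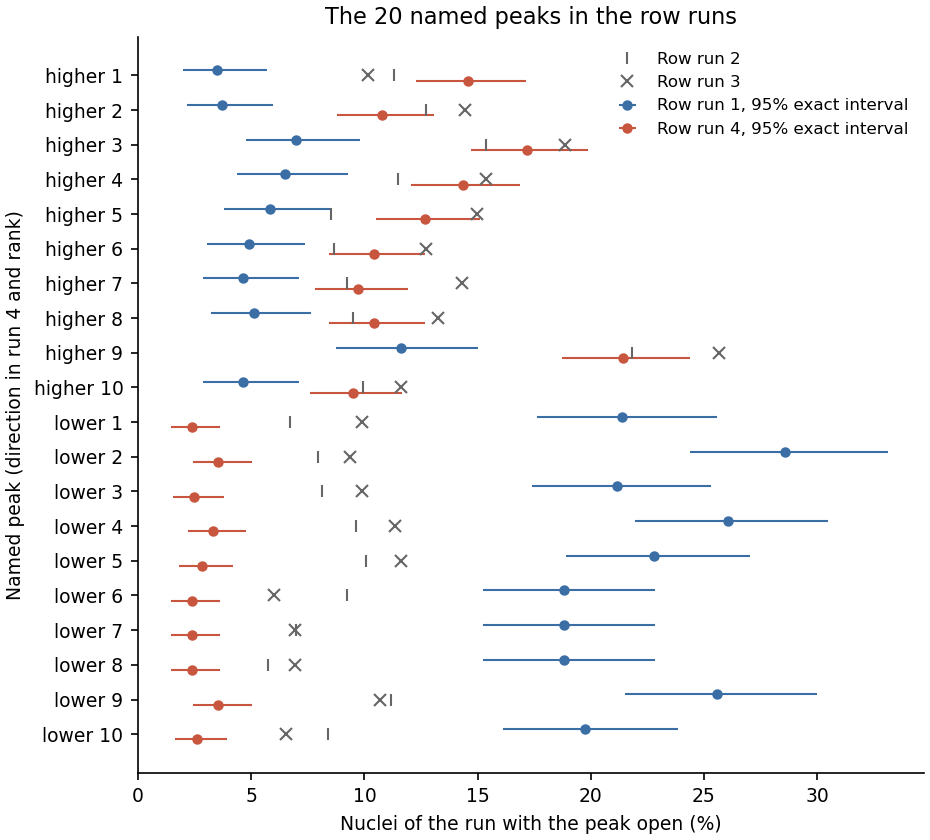
Share of nuclei with the peak open (%, x axis) at the 10 peaks with the highest and the 10 with the lowest ratio of run 4 to run 1 (y axis, by direction and rank), among peaks open in at least 100 nuclei. Blue and red points with lines are runs 1 and 4 with exact 95% intervals, and grey bars and crosses are runs 2 and 3. At the lower peaks run 1 reaches 18.8 to 28.6% and run 4 only 2.37 to 3.55%.

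To see whether the runs held the same kinds of nuclei, all 2737 nuclei were clustered on the odd-numbered chromosomes, with every peak past the 2-fold limit left out. This used 23231 peaks and gave 14 clusters, numbered from the largest and given no cell type name. The make-up of the runs differed. Clusters 3 and 4 held 264 nuclei of run 1 (61.4%, 56.6 to 66.0), 184 of run 2 (25.7%), 153 of run 3 (20.5%) and 83 of run 4 (9.83%, 7.91 to 12.04). Clusters 5, 6 and 7 went the other way, with 11 nuclei of run 1 (2.56%, 1.28 to 4.53), 113 of run 2 (15.8%), 185 of run 3 (24.7%) and 277 of run 4 (32.8%, 29.7 to 36.1). Cluster 7, with 98 of these nuclei of run 4, was the shallowest of the 14 clusters, with a median of 715.5 open peaks. The part of depth in its share was not tested.

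The largest cluster also took a larger share of run 4. Cluster 1 held 44 nuclei of run 1 (10.2%, 7.53 to 13.5) and 185 of run 4 (21.9%, 19.2 to 24.9). Clusters 10 and 13 were mostly of run 2, with 111 of its nuclei (15.5%), 25 of run 3 and 18 of run 4 (2.13%). Neither had a nucleus in run 1, where 0 of 430 nuclei has an exact upper bound of 0.854%. Cluster 8, with 28 nuclei of run 1 (6.51%) and 13 of run 4 (1.54%), was the only cluster besides 3 and 4 with a smaller share in run 4. Summed over clusters, 56.5% of the nuclei (49.6 to 63.0) would have to change cluster to turn one make-up into the other, an interval taken from the bounds of the exact intervals of both shares. With nuclei thinned to 500 open peaks only 5 clusters were found and this value was 30.9%.

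**Figure D4:**
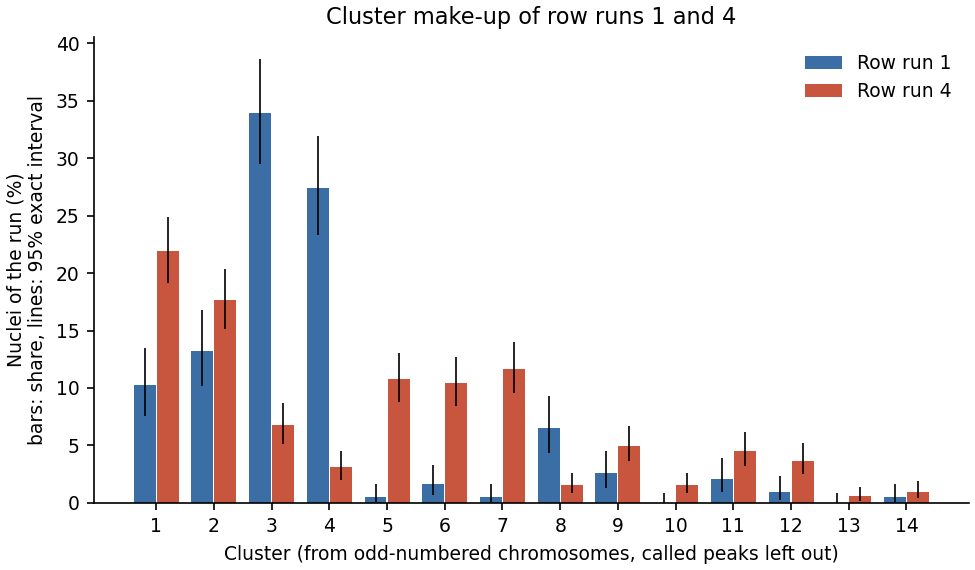
Share of the nuclei of row run 1 (blue bars) and row run 4 (red bars) in each of the 14 clusters (x axis), in % of the nuclei of the run (y axis), with exact 95% intervals as lines. Clusters 3 and 4 fall from 61.4% of run 1 to 9.83% of run 4 together, and clusters 5, 6 and 7 go from 2.56% to 32.8%.

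The peaks leading some of these clusters differed between runs 4 and 1 in the direction of the cluster, some only weakly. Those of cluster 8 went against it. To describe this, the peaks leading a cluster were taken from the even-numbered chromosomes, which the clustering had not used. They were those at least 2-fold higher in the cluster than in the other nuclei of runs 2 and 3. Only peaks compared between runs 4 and 1 could enter, which were open in at least 20 nuclei of these runs together. Run 1 or run 4 could thus help a peak to enter, so these sets are not independent of the comparison. The 1179 peaks leading cluster 3 had a median log2 ratio of run 4 to run 1 of -1.01, with 594 (50.4%) past the limit on the lower side and 0 on the higher. The 1186 peaks leading cluster 4 had a median of -0.997, with 588 (49.6%) lower and 0 higher. Over all 8741 even-numbered chromosome peaks examined in this way the median was 0.06, with 9.68% lower and 5.13% higher.

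Clusters 3 and 4 shared many of their leading peaks. Of the 8741 peaks examined, 1179 led cluster 3 and 1186 led cluster 4. Of their leading peaks 672 were the same, 57.0% of those of cluster 3 and 56.7% of those of cluster 4. The peaks leading cluster 5 numbered 653 and had a median log2 ratio of 0.63, with 215 (32.9%) on the higher side and 2 on the lower. The peaks leading clusters 1 and 6 had medians of 0.46 and 0.44, with 10.2% and 11.3% on the higher side. Both were led by 538 peaks, 47.2% of those of cluster 1 and 45.7% of those of cluster 6. Clusters 1 and 5, with 1139 and 653 leading peaks, had only 5 in common, so their peaks on the higher side were largely different ones. Leading peaks were defined against the nuclei of the other clusters, which works against overlap. The 780 peaks leading cluster 13, which held 0 nuclei of run 1 and 5 of run 4, had a median of 0.44, with 22.2% on the higher side. With 5 nuclei the cluster could add few of the calls of run 4, and the overlap of its leading peaks with those of other clusters is not given here. The peaks leading cluster 2 had a median of 0.15, with 4.28% higher and 2.77% lower. Cluster 7 followed its share only weakly, and cluster 8 did not follow its share. Cluster 7 went from 0.465% of run 1 to 11.6% of run 4, but its 972 leading peaks had a median of only 0.11. Of these 9.36% were higher and 4.32% lower, beside 5.13% and 9.68% of all peaks examined. Cluster 8 took a smaller share of run 4, but its 639 leading peaks had a median of 0.33, with 11.1% higher and 3.599% lower.

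Single nuclei showed that run 1 fell into nuclei rich in the peaks of clusters 3 and 4 and nuclei poor in them. The 672 peaks leading both clusters took a median of 10.8% of the even-numbered chromosome calls of a nucleus in run 1, 1.58% in run 2, 1.66% in run 3 and 1.67% in run 4. At least 6% of these calls fell there in 274 nuclei of run 1 (63.7%), 209 of run 2 (29.2%), 177 of run 3 (23.7%) and 125 of run 4 (14.8%). Thinning to 500 open peaks gave 65.9% for run 1 and 14.2% for run 4. Random thinning keeps the share of calls of a nucleus about the same, and the clusters and peaks were chosen at full depth. These values are thus no test of the part of depth. The limit of 6% was set after the values were seen.

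The peaks leading both clusters 1 and 6 and those leading cluster 5 had the reverse pattern. At the 538 peaks leading both clusters 1 and 6, at least 6% of calls fell in 82 nuclei of run 1 (19.1%), 218 of run 2 (30.5%), 312 of run 3 (41.7%) and 363 of run 4 (43.0%). Run 3 was thus close to run 4. After thinning, which is no test of depth here either, the shares of nuclei were 19.7% in run 1 and 45.7% in run 4. The medians there were 3.43% in run 1 and 4.87% in run 4, and 3.45% and 5.39% at matched depth. At the 653 peaks leading cluster 5 this was reached by 5 nuclei of run 1 (1.16%), 176 of run 2 (24.6%), 83 of run 3 (11.1%) and 162 of run 4 (19.2%). The median nucleus had 2.49% of its calls there in run 1 and 2.74% in run 4. At the peaks of cluster 5 the runs thus differed in the number of nuclei with a high share more than in their medians.

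**Figure D5:**
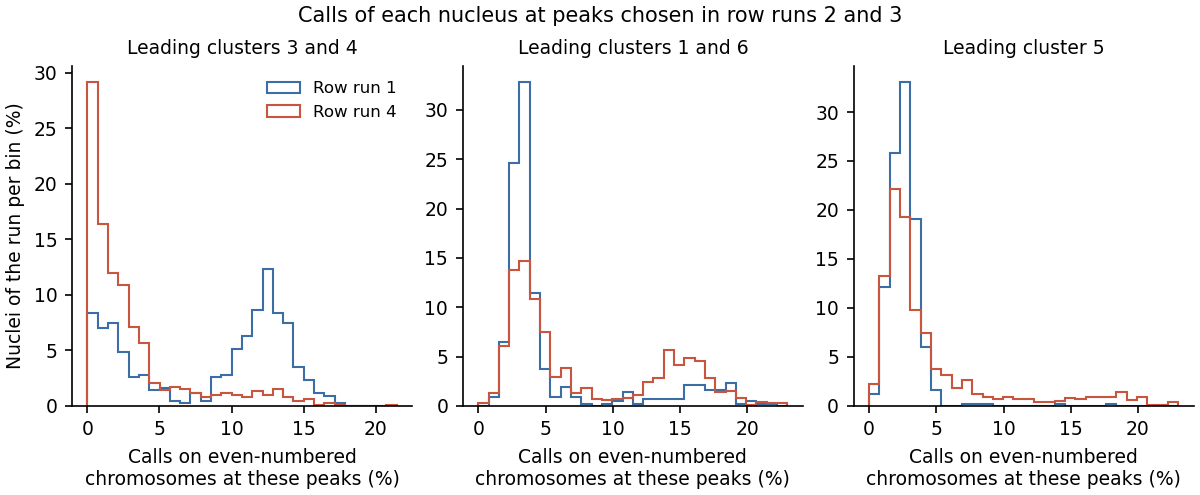
Distribution over nuclei (y axis, % of the nuclei of the run in each bin) of the share of even-numbered chromosome calls (x axis, %) at peaks leading clusters 3 and 4 (left), clusters 1 and 6 (middle) and cluster 5 (right), for row run 1 (blue) and row run 4 (red). The peaks were chosen by their levels in runs 2 and 3, among the peaks compared between runs 4 and 1. At those of clusters 3 and 4 the median is 10.8% in run 1 and 1.67% in run 4.

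Within a cluster the runs were closer, but they still differed. Clusters 1 to 4 had at least 20 nuclei of each run and held 365 nuclei of run 1 (84.9%) and 417 of run 4 (49.4%). At the lower peaks on even-numbered chromosomes, nuclei of cluster 3 had 14.3% of their calls in run 1 and 11.5% in run 4, a ratio of 0.803 (0.773 to 0.833). Those of cluster 4 had 14.7% and 11.8%, a ratio of 0.806 (0.767 to 0.847). In cluster 2 the change was larger, from 4.07% to 2.96%, a ratio of 0.727 (0.681 to 0.775). In cluster 1 few calls fell there in either run, 0.928% and 0.774%. The lower peaks thus stayed common among the nuclei of clusters 3 and 4 that were in run 4.

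At the higher peaks the calls of cluster 3 went from 0.615% in run 1 to 1.35% in run 4, a ratio of 2.20 (1.94 to 2.49). In cluster 4 they went from 0.588% to 1.33%, a ratio of 2.26 (1.91 to 2.66). In cluster 2 the ratio was 1.85 (1.67 to 2.06), and in cluster 1, where these peaks took 4.01% of calls in run 1 and 5.07% in run 4, it was 1.27 (1.17 to 1.37). The peaks had been selected for their ratio in these same nuclei, so the within-cluster differences run high. The nuclei of run 4 were also shallower within clusters 2, 3 and 4, with median open peaks of 1035, 1064 and 1244.5 against 1373, 1679.5 and 1551, while in cluster 1 the medians were 804 and 754. The part of depth in these differences was not tested.

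The calls of run 4 were then weighted so that each cluster had the share of calls it had in run 1. Of the 868 lower peaks on even-numbered chromosomes, 128 (14.7%) stayed past the 2-fold limit and 187 changed sign, and their median log2 ratio went from -1.27 to -0.35. Of the 454 higher peaks, 55 (12.1%) stayed past the limit and 85 changed sign, and the median went from 1.27 to 0.41. Over all 8888 peaks compared on these chromosomes, 516 (5.81%) were past the limit in either direction after weighting. Besides the 128 and 55 that stayed past it, these 516 were peaks that had been within the limit before weighting. The weighted values of clusters 3 and 4 rest on 57 and 26 nuclei of run 4.

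Among the named peaks, weighting moved the log2 ratios of the 10 lower ones to between -0.71 and 0.08, and 0 stayed past the limit. The peaks on chromosome 18 from 8207621 to 8208236 and on chromosome 11 from 40797276 to 40797790 changed sign, to values close to 0. All 10 were highest in clusters 3 and 4 among the nuclei of runs 2 and 3, at 103 to 234 CPM and 118 to 220 CPM. In cluster 3 the peak at chromosome 5 from 24845392 to 24846113 was called in 45.9% of nuclei of run 1 and 17.5% of nuclei of run 4, and in cluster 1 in 0% and 1.08%. These shares are not scaled for depth, and the median open peaks of cluster 3 were 1679.5 in run 1 and 1064 in run 4. The fall differed between peaks and clusters. In cluster 4 the peak on chromosome 18 was open in 25.4% of nuclei of run 1 and 26.9% of run 4. The weighted values of the 10 higher peaks lay between -0.05 and 2.13, and 1 stayed past the limit.

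That peak was the one on chromosome 23 from 43613229 to 43613686, whose log2 ratio was 2.27 before and 2.13 after weighting. It was open in a larger share of the nuclei of run 4 than of run 1 in each of clusters 1 to 4, on few nuclei in some, with 8 of 146 and 7 of 57 in cluster 3 and 2 of 118 and 5 of 26 in cluster 4. The shares were 4.55% and 13.5% in cluster 1, 1.75% and 16.1% in cluster 2, 5.48% and 12.3% in cluster 3 and 1.69% and 19.2% in cluster 4. In runs 2 and 3 it was open in every cluster, at 52.3 to 218 CPM. The higher peak on chromosome 11 from 43757269 to 43757926, in contrast, was at 295 CPM in cluster 1, 325 CPM in cluster 6 and 0 CPM in cluster 4.

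Peaks past the limit after weighting that also went the same way in each of clusters 1 to 4 were few. Only peaks past the limit after weighting were examined for this, and these clusters held 49.4% of the nuclei of run 4. Among peaks open in at least 100 nuclei, the even-numbered chromosomes held 1516. Before weighting 101 of them were past the 2-fold limit. After weighting 11 were, and all but 1 of these 11 had been within the limit before. Of these 11, 6 were lower in CPM in run 4 in each of clusters 1 to 4 and 0 were higher in each. On the odd-numbered chromosomes the clustering had left out only the 144 peaks already past the limit, and 4 of these stayed past it after weighting. Among these 4 were 3 that were higher in CPM in each of clusters 1 to 4. They had entered only because they were past the limit. Besides the peak on chromosome 23 they lay on chromosome 15 from 4969260 to 4970173, open in 21 nuclei of run 1 (4.88%) and 80 of run 4 (9.48%), and on chromosome 7 from 7474482 to 7475138, open in 30 and 88. A peak on chromosome 24 from 26380863 to 26381364, one of the 6 lower peaks, was the only one of the 11 that had passed the limit before weighting. It was open in 117 nuclei of run 1 (27.2%) and 53 of run 4 (6.28%). These peaks were picked after their values were seen.

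Ratios also varied with how widely a peak was open. The median log2 ratio was -0.02 for the 11045 peaks open in 20 to 49 nuclei, 0.02 for those open in 50 to 99, 0.11 for those open in 100 to 199, 0.23 for those open in 200 to 399 and 0.30 for the 49 peaks open in at least 400. Of these 49 peaks 0 were past the 2-fold limit in either direction. Peaks open in 20 to 49 nuclei included 707 of the higher and 1139 of the lower ones. From this band to that of 200 to 399 nuclei, 6.40%, 3.58%, 1.54% and 0.418% of peaks were higher. In the same order 10.3%, 12.6%, 7.67% and 0.418% were lower. The peak open in the most nuclei lay on chromosome 12 from 22559697 to 22560702, with 278 nuclei of run 1 (64.7%, 59.9 to 69.2) and 459 of run 4 (54.4%, 51.0 to 57.8). Scaled to the calls of each run it was at 414 CPM and 545 CPM, a log2 ratio of 0.39. Its share of nuclei was thus lower in run 4 and its share of calls higher, and the part of depth in this was not tested.

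Over all peaks compared, wide peaks had higher ratios than peaks of middle width. The median log2 ratio was 0.18 for the 409 peaks of 200 to 249 bp, -0.10 at 250 to 349 bp, -0.04 at 350 to 499 bp, 0.08 at 500 to 699 bp and 0.25 for the 2613 peaks of 700 bp or more. Lower peaks made up 12.3% of the peaks of 350 to 499 bp and 6.12% of the widest. Among peaks open in 100 to 199 nuclei the medians were 0.17 at 250 to 349 bp, -0.02 at 350 to 499 bp, 0.08 at 500 to 699 bp and 0.23 at 700 bp or more. In these bands lower peaks made up 0%, 5.46%, 10.2% and 6.26%, so the larger share of lower peaks at 350 to 499 bp than at 700 bp or more was not seen there. Width was counted from the start to the end that the matrix gives.

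Peaks near each other tended to have like ratios. Among neighbouring peaks within 10 kb, the Pearson correlation of their log2 ratios was 0.46 over 6251 pairs, which share nuclei and depth. Among neighbours over 100 kb apart it was 0.07 over 3238 pairs. In the near pairs both peaks were past the limit 307 times, 82 times both higher, 215 times both lower and 10 times in opposite directions. In the far pairs this occurred 75 times, with 52 in the same direction and 23 in opposite directions.

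Windows of 100 kb held more calls than single peaks and showed where such neighbours gathered. Of 10730 windows with a peak, 4721 had at least 100 calls in both runs together, and of these 505 (10.7%) were at least 1.5-fold higher in run 4 and 750 (15.9%) at least 1.5-fold lower. The window with the lowest ratio, on chromosome 3 from 25700001 to 25800000, had 267 calls in run 1, 203 in run 2, 192 in run 3 and 49 in run 4, a ratio of CPM of 0.146 (0.106 to 0.199). Of its 8 peaks 7 were lower in run 4. A call in the window was present in 40.5% of the nuclei of run 1 and 5.21% of those of run 4.

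The ratio of this window came from several peaks. The peak from 25792106 to 25792576 was open in 79, 52, 43 and 8 nuclei of runs 1 to 4, and the peak from 25794608 to 25795112 in 80, 51, 49 and 14. In runs 2 and 3 the window was at 540 CPM in cluster 3 and 581 CPM in cluster 4, against 147 CPM or less in each other cluster. The next 4 windows on the lower side were on chromosome 14 from 37700001, chromosome 10 from 25500001, chromosome 7 from 47000001 and chromosome 7 from 11000001. They went from 93, 117, 89 and 125 calls in run 1 to 20, 27, 19 and 33 in run 4. Each was highest in clusters 3 and 4 in runs 2 and 3. In the window on chromosome 10, at 259 CPM in cluster 3 and 216 CPM in cluster 4, cluster 7 was close at 212 CPM.

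On the higher side the leading window was on chromosome 16 from 11800001 to 11900000. It had 13 calls in run 1, 119 in run 2, 93 in run 3 and 112 in run 4, a ratio of CPM of 6.87 (3.86 to 13.3), and 6 of its 7 peaks were higher in run 4. In runs 2 and 3 it was at 395 CPM in cluster 5 and 289 CPM in cluster 13. The others were on chromosome 14 from 3300001, chromosome 12 from 17000001, chromosome 14 from 45900001 and chromosome 16 from 30900001. They went from 13, 15, 21 and 23 calls in run 1 to 95, 102, 129 and 121 in run 4. Cluster 5 was at 271 to 485 CPM in all 5 windows. In the window on chromosome 14 from 45900001, clusters 13, 7 and 12 were above it, at 411, 338 and 319 CPM. The named higher peak on chromosome 11 from 43757269 to 43757926 was at 19.03 CPM in cluster 5.

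Runs 2 and 3 gave levels between those of runs 1 and 4 at the called peaks. The 932 higher peaks had median levels of 7.45 CPM in run 1, 29.2 CPM in run 2, 23.1 CPM in run 3 and 33.3 CPM in run 4. The 1981 lower peaks had medians of 49.2, 25.4, 23.99 and 13.1 CPM. The peaks were chosen by the ratio of run 4 to run 1, which favours a place between them for the other runs. Any comparison with run 1 or run 4 shares that run with the choice and is no test. At the higher peaks the medians of runs 2 to 4 were nearer to each other than to that of run 1. At the lower peaks those of runs 2 and 3 were near the middle.

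Gene names were available for a subset of the peaks, from a list of the study that pairs regions of Epi/FB chromatin with regeneration elements and gene symbols. The list was drawn from these same nuclei and the copy read here is incomplete, so it is no independent evidence and no test was made on it. Of 1950 peaks that it covered, 375 were among those compared, and their median log2 ratio was 0.20. Of these 20 (5.33%) were on the higher side and 3 (0.8%) on the lower, beside 4.78% and 10.2% of all peaks compared. A symbol in the list is a pairing made there, and whether a peak acts on that gene was not tested.

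The higher peaks of the list were paired with genes of varied roles. The peak paired with nfixa, a transcription factor of the nuclear factor I family, was open in 32 nuclei of run 1 (7.44%) and 92 of run 4 (10.9%), a ratio of CPM of 2.29 (1.52 to 3.54). The peak paired with cald1a, a caldesmon, an actin-binding protein in mammals, was open in 9 nuclei of run 1 and 39 of run 4, a ratio of 3.45 (1.65 to 8.11). For calca, which in mammals encodes the peptides calcitonin and CGRP, the paired peak was open in 11 and 37 nuclei, and for ahr2, an aryl hydrocarbon receptor, in 7 and 30.

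Others rested on few calls in run 1. The peak paired with kiss1, which encodes a kisspeptin, was open in 4 nuclei of run 1 and 24 of run 4. That of gpr176, an orphan G protein-coupled receptor, was open in 1 and 24, with a ratio of CPM of 19.1 whose interval ran from 3.12 to 787. On the lower side, the peak paired with vcana, a versican of the extracellular matrix, was open in 22 nuclei of run 1 (5.12%) and 8 of run 4 (0.948%). The peaks paired with fmnl3, a formin that builds actin filaments in mammals, and pdzrn3b were open in 21 and 35 nuclei of run 1 and in 8 and 16 of run 4.

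The genes fixed here as markers or factors, only some of which the study names, could hardly be compared. Of these genes 9 had a peak in the list. The study also followed fn1a, postnb and tcf21, which were not among them. The peak paired with tead1a, a partner of the coactivator Yap, was open in 12 nuclei of run 1 and 9 of run 4, a ratio of CPM of 0.598 (0.222 to 1.55), and was the only one to reach 20 nuclei. The peaks paired with nppc, a natriuretic peptide, were open in 1 and 6, with dcn, decorin, in 1 and 5, and with stat1a in 5 and 6. Those paired with aldh1a2, an enzyme of retinoic acid synthesis, were open in 2 and 2, and with twist1a in 1 and 3. Fewer nuclei of run 4 than of run 1 were open at those paired with tead3b, 7 and 4, wt1b, 3 and 1, and pdgfra, 3 and 1. At this depth no difference was detectable at these peaks.

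The differences were spread over the genome. On all 25 chromosomes more peaks were lower than higher in run 4. The share of calls on a chromosome differed little between the runs, with log2 ratios from -0.09 on chromosome 18 to 0.10 on chromosome 6. Beyond the midpoint of chromosome 4, whose long arm is poor in peaks, 49 peaks were compared, 3 of them lower (6.12%) and 0 higher. In the outermost 1 Mb of the chromosomes 1254 peaks were compared, with 63 (5.02%) higher and 94 (7.50%) lower. Over all peaks compared these shares were 4.78% higher and 10.2% lower.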

How the data were processed

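The authors prepared nonCM nuclei with the 10X Genomics scATAC-seq protocol, and the submitters' processing notes name Cell Ranger ATAC, FastQC and the build danRer11. Nuclei outside limits on logUMI, clusters of cardiomyocytes and putative doublets were removed by the authors, so no doublet caller was run. The deposited counts, described as raw, hold only 0 and 1, an open call of a peak in a nucleus, and were used as such. Coordinates are as deposited. Columns and rows name no sample, so 0 of 4 samples were mapped to rows.

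Runs, CPM, ratios (10 CPM added) and intervals (Clopper-Pearson for shares, conditional binomial for ratios) were computed in Python 3.11.15 with numpy 2.4.6 and scipy 1.17.1. Clustering used weighted peaks open in at least 10 nuclei, singular value decomposition without components correlated with log depth at 0.5 or more, 15 components, 15 neighbours and Leiden at resolution 1 (scikit-learn 1.9.0, igraph 0.11.9, leidenalg 0.10.2), and was tested on simulated data. Named peaks are the 10 highest and 10 lowest ratios among peaks open in at least 100 nuclei, and named windows the 5 highest and 5 lowest. Leading peaks needed 20 open nuclei in runs 2 and 3 and a cluster of at least 50 nuclei there. The runs, lists and limits were chosen with earlier results of these data known. Marker loci and motifs were not analysed, since no gene positions or sequence of the build were used here.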

Additional observations from a re-analysis of the deposited data

How the results depend on the processing

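The counts of peaks past the limit depended on the settings. With 1 CPM added in place of 10, 2046 peaks were higher and 3262 lower, and with 30 CPM added 95 and 500. Peaks open in at least 10 nuclei gave 1608 higher, those open in at least 50 gave 225 higher and 842 lower, and those open in at least 100 gave 43 and 202, with a median log2 ratio of 0.16. Limits of 1.5-fold and 3-fold gave 3100 higher and 4231 lower, and 144 and 350. With the share of nuclei in place of CPM, which does not correct for depth, 336 were higher and 4628 lower against 932 and 1981. Thinning to 500 open peaks gave 1741 higher. On even-numbered chromosomes alone 454 were higher and 868 lower, and 166 and 350 after weighting to the clusters of run 1. Windows with at least 300 calls gave 108 higher and 172 lower, and a limit of 2-fold 89 and 276. In each of these settings lower peaks and windows outnumbered higher ones. The shift in cluster make-up was 30.9% with thinned nuclei and 51.6 to 56.0% in the 6 other alternatives. These alternatives on clusters and the unweighted even-numbered chromosomes were chosen after the data were seen. The causes of these changes were not tested, beyond the fewer peaks, nuclei or clusters that a setting leaves.

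Equal weight for each nucleus, ratios centred on their median, nuclei with 500 to 2000 open peaks and removal of rows with repeated barcodes kept both counts within 1.5 times. For the named peaks 131 of 180 values stayed within the counting interval, 46 moved and 3 changed sign. Weighting to the clusters of run 1 kept 1 of 20 within it, 30 CPM added kept 8 of 20, and the share of nuclei 10 of 20. The 3 changes of sign all came after weighting to the clusters of run 1. Their log2 ratios were -0.051 for the higher peak on chromosome 20 from 46366338, 0.076 for the lower peak on chromosome 18 and 0.00090 for the lower peak on chromosome 11. Marker loci and motifs were not run, and the difference between wide and narrow peaks gave no value among peaks open in at least 100 nuclei, as 0 of these were under 250 bp. No paired analysis was possible because no row is tied to a sample and the result comes from no test.

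With 1 run on each side and no replicate, the spread between libraries is unknown. The least depth was that of run 4, where 1 call was worth 1.19 CPM but only 39.6% of nuclei had 1000 open peaks.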
